A study of Homo sapiens with 12 samples.

Results

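The E2F transcription factors and the retinoblastoma (RB) family were followed in MV4-11 cells, a human acute myeloid leukemia line that carries the FLT3 internal tandem duplication. The 10 members were matched by symbol to the Ensembl identifiers of 1 deposited expression table of 43876 genes and RNAs. They are the activators E2F1, E2F2 and E2F3, the canonical repressors E2F4 and E2F5, the atypical repressors E2F7 and E2F8, and the RB family genes RB1, RBL1 and RBL2. Cells of the same line received one of 4 treatments for 24 h, and RNA-seq was made of 3 libraries per treatment, 12 in all. The Mito-Lipo cells received 20 nM mitoxantrone, a topoisomerase II poison that the labels give as mitoxantrone and the study describes as a liposomal form. The Gilteritinib cells received 25 nM gilteritinib, an inhibitor of FLT3. The Com cells received 20 nM mitoxantrone with 20 nM gilteritinib, so the gilteritinib dose in Com was lower than alone. The DMSO cells received the solvent and served as the control of all 3 treatments, which makes the comparisons against DMSO share their control libraries. No source used here says whether the 3 libraries of a treatment came from separate cultures, so the p-values measure only the spread between these libraries, which may be technical.

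E2F proteins bind DNA together with a DP partner and set the level of genes for DNA synthesis. In resting cells and in early G1 the pocket proteins RB1, RBL1 (p107) and RBL2 (p130) hold E2F proteins at their target promoters and keep the targets low; RBL1 and RBL2 do this with E2F4 or E2F5 inside the DREAM complex. Phosphorylation of the pocket proteins by cyclin-dependent kinases releases the activators, and E2F7 and E2F8, which need no DP partner and bind no pocket protein, lower the same targets later in the cycle. Several genes of the family are themselves E2F targets.

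The stretch before the start of each gene shows which members carry the letters of an E2F site. The windows came from RefSeq (GRCh38.p14) and ran from 250 bases before to 50 bases after the annotated start. Windows were found for 8 of the 10 members, and E2F5 and E2F8 had none. The E2F site was searched as TTTGGCGC, TTTCGCGC, TTTCCCGC or TTTGCCGC on both strands, which may overlap. The 80 bases before the start are printed 5′ to 3′ on the strand of the gene for the 4 members that held a match, and for E2F4 as a member without one. Capitals mark the match.
E2F1 (chr20:33686386-33686465, minus strand): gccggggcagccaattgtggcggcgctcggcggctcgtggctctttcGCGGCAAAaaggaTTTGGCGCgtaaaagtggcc
E2F2 (chr1:23531234-23531313, minus strand): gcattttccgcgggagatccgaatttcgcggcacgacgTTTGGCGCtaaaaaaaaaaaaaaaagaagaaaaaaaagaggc
E2F3 (chr6:20401799-20401878, plus strand): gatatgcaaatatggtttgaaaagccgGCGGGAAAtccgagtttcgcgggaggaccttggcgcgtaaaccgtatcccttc
RBL1 (chr20:37095998-37096077, minus strand): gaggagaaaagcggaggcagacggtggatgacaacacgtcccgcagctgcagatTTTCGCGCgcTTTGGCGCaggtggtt
E2F4 (chr16:67192075-67192154, plus strand): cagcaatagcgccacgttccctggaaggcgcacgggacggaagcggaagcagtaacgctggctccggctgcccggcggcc

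All 3 activators and RBL1 held at least 1 of these forms, while the windows of E2F4, E2F7, RB1 and RBL2 held none. E2F1 and RBL1 each held 2 matches. Of all 35116 RefSeq windows of this length, 3.31% held a match, and of 27305 genes 3.99% did. Among the 44 genes with a window in a list of G1/S targets of E2F, described further on, 56.8% held a match, and among 20 genes of a G2/M list 15% did. The shorter letters TTGGCGC, which are part of the first form, were in 3.04% of all windows and also in that of E2F7. A match describes letters in a window and says nothing of binding in these cells, and the absence of a match says only that these letters are not in the window.

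The libraries held about 31700000 to 41300000 fragments, recovered from the steps that single fragments make in the deposited values. All 9 markers set for MV4-11 cells were found, FLT3 at FPKM 132 to 171 among them. Of 11 markers of other lineages, 6 stayed below FPKM 0.1 in every library, and 2 reached FPKM 1. The summed FPKM of these 11 was 4.26 to 4.82 in Mito-Lipo and 2.66 to 3.88 in DMSO, and its part in the results was not tested. The libraries numbered replicate 1 stood apart from replicates 2 and 3. Mitochondrial transcripts made up 1.64% to 3.32% of the summed FPKM in replicate 1 and 3.48% to 4.401% in replicates 2 and 3, and each result that rests on all 12 libraries is therefore also given with the replicate number taken into account where that alters it.

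Levels are given as FPKM, fragments scaled to the length of the gene and the depth of the library. Being per length, they let genes be set in order, but the gene lengths behind the deposited values are unclear. An order of genes is therefore approximate. In DMSO the highest member was E2F4, at 35.8 ± 1.24 (SD, n = 3). RB1 followed at 30.6 ± 0.509 and RBL2 at 29.9 ± 0.525, and the libraries of these neighbours overlapped. RBL1 stood next at 27.1 ± 1.32, below every RBL2 library. E2F1 at 20.3 ± 2.64, E2F8 at 15.8 ± 2.98 and E2F3 at 12.2 ± 1.27 came next, each overlapping its neighbour in the order. E2F7 stood at 7.995 ± 0.733, E2F5 at 1.13 ± 0.404 and E2F2 below both. These are levels of RNA, and in bulk samples a lower share of cells with a transcript and less RNA per cell cannot be told apart.

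E2F2, on chromosome 1 (23506430 to 23531220, minus strand, GENCODE 29 on GRCh38), was the activator without a usable signal. It reached FPKM 0.0364 at most, in Mito-Lipo replicate 2, which corresponds to about 6.30 fragments, and was listed at 0 in 3 of 3 Com libraries. It entered no test. The activator class is therefore described by E2F1 and E2F3, and 9 of the 10 members were tested. The other members rested on about 1344 to 9206 fragments per library, apart from E2F5 with about 151 to 356.

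**Figure D1:**
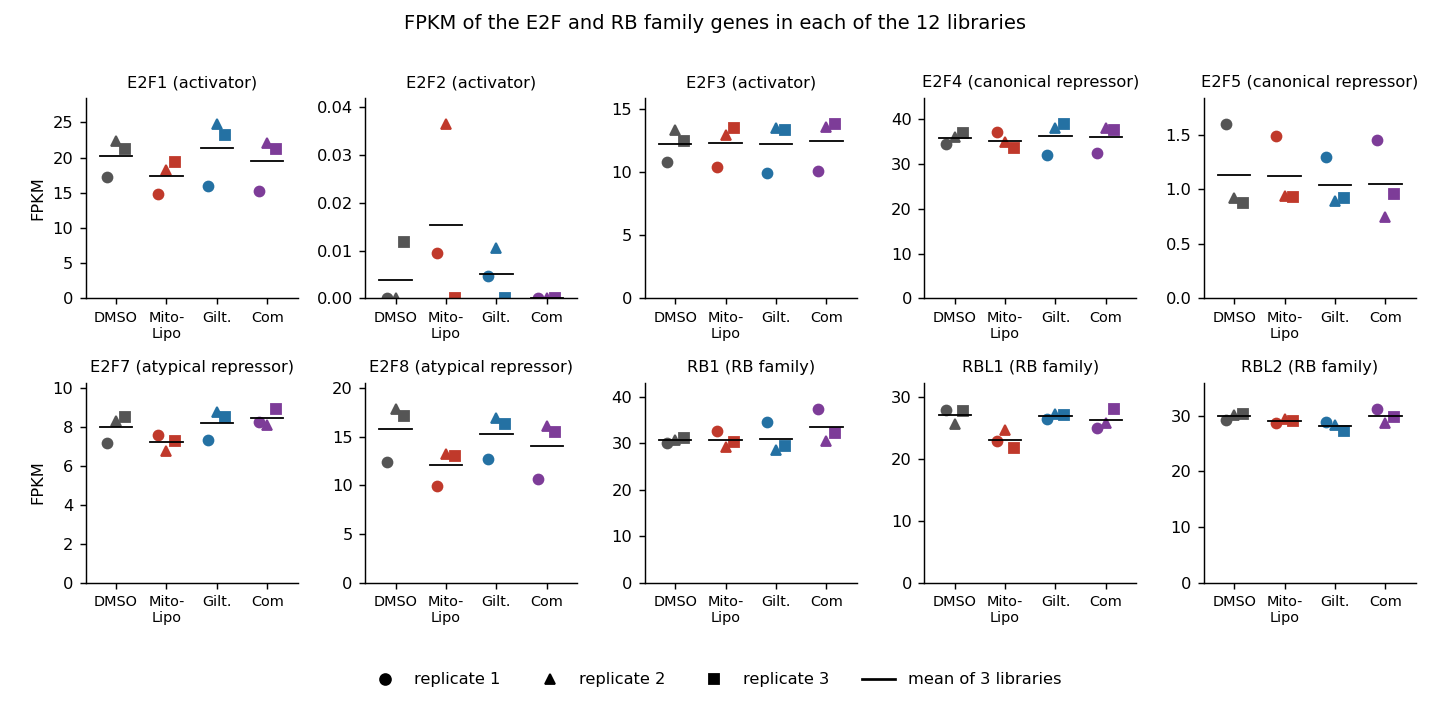
FPKM (y axis, starting at 0, on a separate scale per gene) of the 10 members in the 4 conditions (x axis), with 1 symbol per library by replicate number and a bar at the mean of 3. Replicate 1 is the lowest library of its condition for E2F1, E2F3 and E2F8 and the highest for E2F5. The 3 Mito-Lipo libraries of RBL1, 21.7 to 24.6, lie below the 3 DMSO libraries, 25.6 to 27.96, as for 5.9% of all genes.

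The question put to Mito-Lipo against DMSO was whether mitoxantrone alone moved the family. E2F8 and E2F1 were lower in Mito-Lipo than in DMSO at each of the 3 replicate numbers, and so was RBL2 by smaller amounts. Of all genes 43.0% were lower in Mito-Lipo, and the share lower at each number was not counted. RBL1, alone of the 9 tested members, was lower in every Mito-Lipo library than in any DMSO library. Over all genes 13.6% did not overlap, and 5.9% were lower without overlap. None of the 9 tested members passed the test, which was limma on log2(FPKM + 1) with Benjamini-Hochberg adjustment over 18574 genes. In this comparison 0 of those genes passed (0.0% of the background), with 1467 at an unadjusted p under 0.05, or 7.9%. All log2 differences below are on this scale, which understates the change of low genes.

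E2F8, on chromosome 11 (19224063 to 19241620, minus strand), is an atypical repressor whose own gene is an E2F target. Its FPKM in DMSO replicates 1, 2 and 3 was 12.4, 17.9 and 17.1, and in Mito-Lipo 9.98, 13.2 and 12.96. The Mito-Lipo libraries were lower number by number, by 0.28, 0.41 and 0.38 on the log2 scale, but the lowest DMSO library, replicate 1, stood below Mito-Lipo replicates 2 and 3, so the groups overlapped. The mean was 12.05 ± 1.80 in Mito-Lipo and 15.8 ± 2.98 in DMSO (SD, n = 3), a difference of -0.36 in log2 (95% interval -0.77 to 0.05) with a limma adjusted p of 0.695.

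Libraries of the same replicate number tended to deviate alike, although no label says that they form matched sets. Taking the number into account narrowed the interval of E2F8. With the number as a block it was -0.48 to -0.23, with a limma adjusted p of 0.0861. With replicate 1 against the others as a batch term the adjusted p was 0.0462, below the threshold, where 0.183% of the genes passed. With replicates 2 and 3 only the difference was -0.39 at an adjusted p of 0.00750, where 6.41% passed. The call of E2F8 thus depended on how replicate 1 entered the fit.

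E2F1, on chromosome 20 (33675683 to 33686404, minus strand), is an activator that RB1 holds in check and carries matches to its own family's site in the window printed above. Its FPKM in DMSO was 17.3, 22.3 and 21.2 and in Mito-Lipo 14.8, 18.2 and 19.3. The Mito-Lipo library was lower at each number, while the groups overlapped. The means were 17.4 ± 2.36 in Mito-Lipo and 20.3 ± 2.64 in DMSO (SD, n = 3), a log2 difference of -0.21 (-0.61 to 0.20, adjusted p = 0.872 by limma). With the block the interval was -0.36 to -0.05 and the adjusted p 0.205.

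RBL1, on chromosome 20 (36996349 to 37095995, minus strand), encodes the pocket protein p107 and is another E2F target. Its FPKM in DMSO was 27.96, 25.6 and 27.8 and in Mito-Lipo 22.8, 24.6 and 21.7. The groups did not overlap, which held for 13.6% of all genes tested. The log2 difference was -0.22 (-0.38 to -0.07), with an unadjusted p of 0.00881 and an adjusted p of 0.5003 by limma, and 0.180 with the block.

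The other members lay nearer to DMSO. E2F7, the atypical repressor next to E2F8 in function, stood at 7.21 ± 0.433 in Mito-Lipo, a log2 difference of -0.13 (-0.34 to 0.08). It was lower at replicate numbers 2 and 3 and higher at number 1. E2F3, the second activator, stood at 12.3 ± 1.66 against 12.2 ± 1.27 in DMSO, a log2 difference of 0.01 (-0.33 to 0.34). E2F4, the main canonical repressor, differed by -0.02 (-0.22 to 0.17) and E2F5, its minor relative, by -0.00 (-0.40 to 0.40). RB1, the tumour suppressor of the family, differed by 0.00 (-0.20 to 0.21), and RBL2, the pocket protein of resting cells, by -0.04 (-0.16 to 0.09). In this fit the intervals of E2F3 and E2F5 leave room for log2 differences of more than 0.3 in either direction. With the block they were -0.13 to 0.14 for E2F3 and -0.21 to 0.21 for E2F5, which still leaves room for smaller differences. These tests thus do not show that the 2 genes held their level.

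Gilteritinib against DMSO asked the same of FLT3 inhibition alone. None of the 9 members passed, as did 0 of 18574 genes (0.0%), with 346 at an unadjusted p under 0.05 by limma. The differences of the members lay between -0.08 for RBL2 and 0.05 for E2F1. RBL2 had FPKM 28.8, 28.4 and 27.2 in Gilteritinib and 29.3, 30.1 and 30.3 in DMSO, so the groups did not overlap, as for 6.57% of all genes. Its log2 difference was -0.08 (-0.21 to 0.04). E2F1 in Gilteritinib, at 16.0, 24.7 and 23.3, held the highest library of all 12, replicate 2, and overlapped DMSO. E2F8 stood at 12.7, 16.9 and 16.2, overlapping DMSO, with a log2 difference of -0.04 (-0.45 to 0.37, or -0.16 to 0.09 with the block). RBL1 stood at 26.9 ± 0.380 (SD, n = 3) and differed from DMSO by -0.01 (-0.16 to 0.15).

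Com against DMSO tested the combination. None of the 9 members passed by limma, and 1 gene did (0.00538% of the background), with 310 at an unadjusted p under 0.05. That gene was MIR4316, a microRNA gene named after its values were seen, with a log2 difference of 1.70 and an adjusted p of 0.0399, and with the block 0 genes passed. The members ranged from -0.16 for E2F8 to 0.12 for RB1. E2F8 had FPKM 10.7, 16.1 and 15.5 and was lower than the DMSO library of the same number in 3 of 3, with overlapping groups, a log2 difference of -0.16 (-0.57 to 0.25) and an adjusted p of 1. With the block its interval was -0.28 to -0.03, at a limma adjusted p of 0.9995. RB1, on chromosome 13 (48303726 to 48599436, plus strand), had FPKM 37.4, 30.4 and 32.2 in Com and 30.0, 30.7 and 31.0 in DMSO. Its log2 difference of 0.12 (-0.09 to 0.32) came mainly from replicate number 1, where it was 0.31, against -0.01 and 0.05 at numbers 2 and 3. E2F1 at 15.3, 22.0 and 21.3 overlapped DMSO, with a log2 difference of -0.06 (-0.47 to 0.35, or -0.21 to 0.09 with the block).

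**Figure D2:**
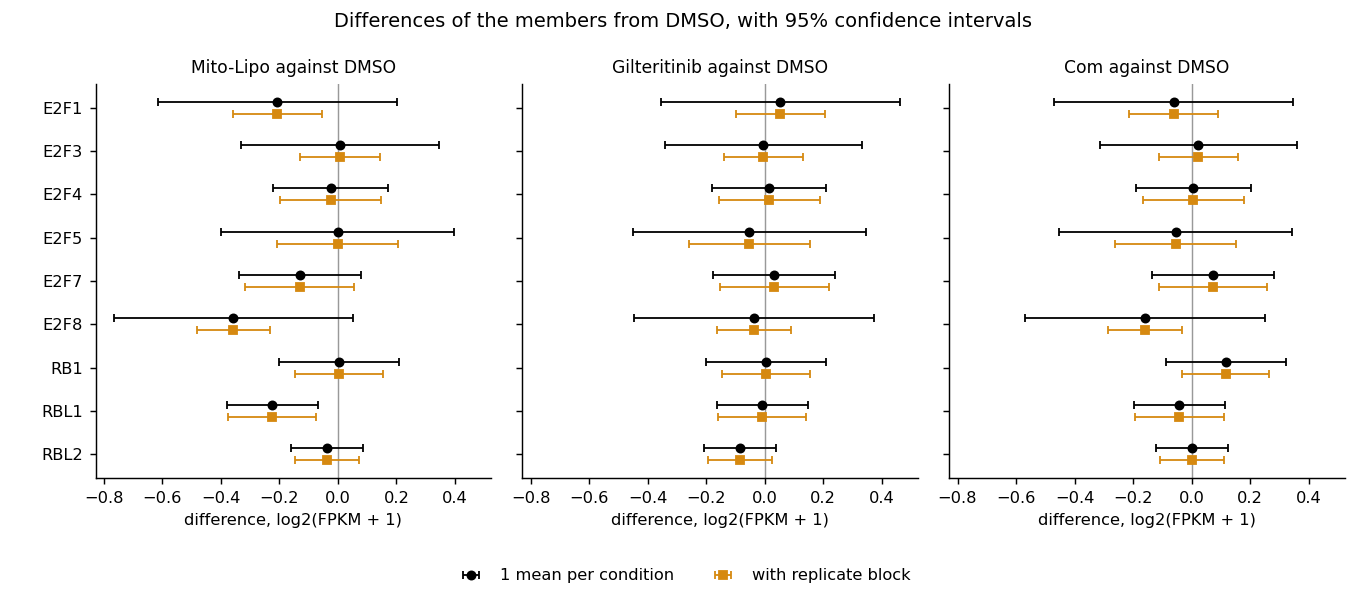
Difference of each tested member from DMSO in log2(FPKM + 1) (x axis) for the 3 treatments, with 95% confidence intervals from limma with 1 mean per condition (black) and from a fit that adds the replicate number as a block (orange). The block shortens the interval of E2F8 in Mito-Lipo from -0.77 to 0.05 to -0.48 to -0.23, and in Gilteritinib every interval holds 0 in both fits.

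The 3 treatments were also set against each other, with the same libraries as in the comparisons against DMSO. Gilteritinib against Mito-Lipo compared the drugs given alone. E2F8 was higher in Gilteritinib by 0.32 in log2 (-0.09 to 0.73), with a limma adjusted p of 0.647, 0.0574 with the block and 0.0341 with the batch term. E2F1 was 0.26 higher (-0.15 to 0.67, adjusted p = 0.727) and passed with replicates 2 and 3 only, at 0.34 and an adjusted p of 0.0190, where 6.63% of all genes passed. With the block the interval was 0.20 to 0.45 for E2F8 and 0.11 to 0.41 for E2F1 (limma adjusted p = 0.106). RBL1 was 0.22 higher (0.06 to 0.37, adjusted p = 0.363), with groups that did not overlap, as for 14.4% of all genes. No gene passed in the fit of all 12 libraries (0.0%; 5 with the block, none a member), and 1768 did at an unadjusted p under 0.05, whereas 1.36% passed with the batch term.

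Com against Mito-Lipo asked what gilteritinib added to mitoxantrone. None of the 9 members passed, nor did any of the 18574 genes (0.0%, 1027 at an unadjusted p under 0.05 by limma, 2 with the block and none of them a member). RBL1 was 0.18 higher in Com (0.03 to 0.34, adjusted p = 0.891) and E2F7 0.20 higher (-0.00 to 0.41, adjusted p = 0.891), and in both the libraries of the groups did not overlap, as for 9.34% of all genes. E2F8 was 0.20 higher (-0.21 to 0.61) at an adjusted p of 0.983, and with replicates 2 and 3 only it passed, at 0.25 and 0.0296, where 6.13% of all genes did. With the block the interval was 0.02 to 0.39 for E2F7 (limma adjusted p = 0.380) and 0.07 to 0.32 for E2F8 (0.246). Com against Gilteritinib passed 0 members and 0 genes (0.0%, 303 at an unadjusted p under 0.05).

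The interaction sets the step from Gilteritinib to Com against the step from DMSO to Mito-Lipo, and thus asks whether mitoxantrone acted differently with gilteritinib present, with the limit that the gilteritinib doses differed. None of the 9 members passed by limma, nor did any gene (0.0%, 541 at an unadjusted p under 0.05). The estimate was 0.23 for E2F8 (-0.35 to 0.81), 0.19 for RBL1 (-0.03 to 0.41) and 0.17 for E2F7 (-0.12 to 0.47). With the block the interval of E2F8 was 0.06 to 0.41, with an adjusted p of 0.580, and with replicates 2 and 3 only its estimate was 0.33 at an adjusted p of 0.0576, so it did not pass in these fits either.

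Activator and repressor E2Fs were contrasted by their summed FPKM in each library, as a description with no test. The sums depend on the gene lengths behind the FPKM, which are unclear. The activators summed to 32.5 ± 3.90 in DMSO, 29.7 ± 4.01 in Mito-Lipo, 33.5 ± 6.68 in Gilteritinib and 31.97 ± 5.73 in Com (SD, n = 3). The canonical repressors, nearly all of it E2F4, summed to 36.9 ± 0.855, 36.3 ± 2.14, 37.4 ± 3.44 and 37.1 ± 2.79 in the same order. The atypical repressors summed to 23.8 ± 3.70, 19.3 ± 1.45, 23.5 ± 3.02 and 22.5 ± 3.11. All 4 conditions overlapped in the activator, canonical and atypical sums.

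The activators stood below the canonical repressors in 12 of 12 libraries, with log2 ratios from -0.62 to -0.03. The mean ratio was -0.19 ± 0.154 in DMSO, -0.30 ± 0.286 in Mito-Lipo, -0.17 ± 0.177 in Gilteritinib and -0.23 ± 0.164 in Com, and the conditions overlapped. It separated by replicate number instead, at -0.44 ± 0.1204 in the 4 replicate 1 libraries, -0.10 ± 0.080 in replicate 2 and -0.12 ± 0.042 in replicate 3. The activators stood above the atypical repressors in all 12 libraries, with a mean log2 ratio of 0.45 ± 0.068 in DMSO and 0.62 ± 0.092 in Mito-Lipo. At number 1 the Mito-Lipo ratio of 0.52 did not exceed the DMSO ratio, so the higher mean came from numbers 2 and 3. Of the summed FPKM of the 7 E2F members, which leaves out E2F6, the atypical repressors made up 21.6% to 23.1% in Mito-Lipo, below the 23.3% to 26.5% of DMSO, the 24.5% to 25.3% of Gilteritinib and the 24.2% to 24.9% of Com.

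**Figure D3:**
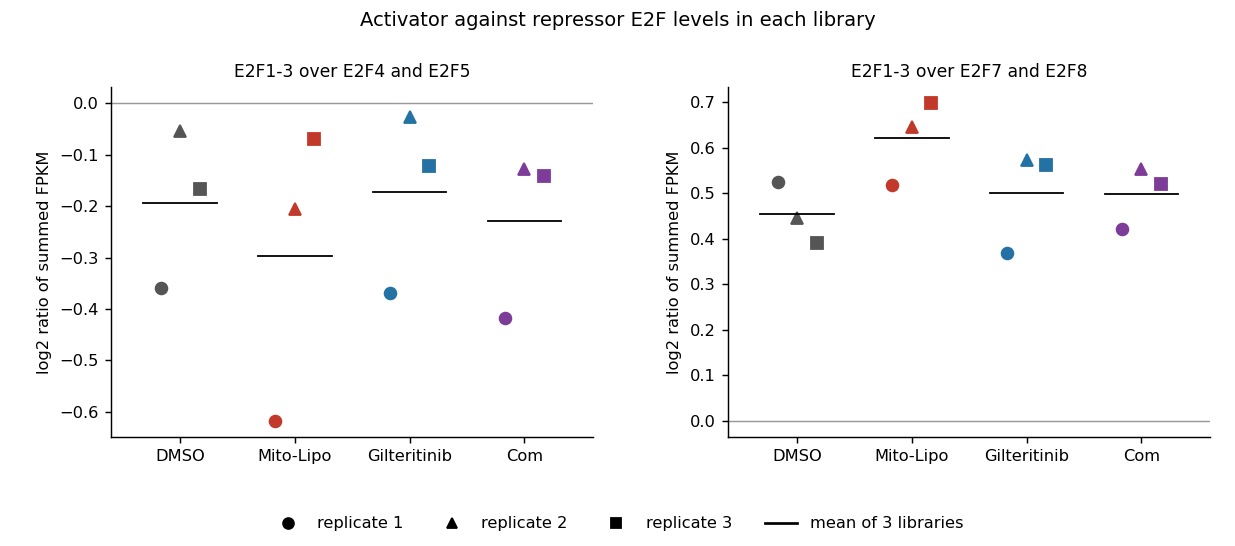
Log2 ratio of the summed FPKM of E2F1, E2F2 and E2F3 to that of E2F4 and E2F5 (left) and of E2F7 and E2F8 (right), with 1 symbol per library by replicate number and a bar at the mean of 3, by condition. The left ratio is below 0 in all 12 libraries and lowest in replicate 1 of each condition (mean -0.44), and the right ratio has its highest mean, 0.62, in Mito-Lipo.

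The targets of the family were described with a list of 54 genes of DNA synthesis and G1/S control, all of which were tested. All 54 were lower in Mito-Lipo than in DMSO, where 43.0% of all genes were lower. None passed at an adjusted p under 0.05 by limma, 24 were lower at an unadjusted p under 0.05 (2.94% of all genes), and 28 did not overlap with DMSO (5.9% of all genes). The median difference was -0.25 in log2, beside 0.03 over all genes, and number by number it was -0.20, -0.26 and -0.28. With the block 0 passed and 45 were lower at an unadjusted p under 0.05, beside 6.46% of all genes. With the batch term 2 passed, beside 0.183% of all genes, the helicase subunits MCM4 (-0.34, adjusted p = 0.0482) and MCM6 (-0.36, adjusted p = 0.0462), both named after their values were seen. With replicates 2 and 3 only, 37 passed, all lower, beside 6.41% of all genes.

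The genes of this list with the smallest p in that comparison were RFC3, BRCA1 and RRM1. RFC3, a subunit of the clamp loader of DNA replication, had FPKM 48.6, 43.8 and 42.9 in DMSO and 35.5, 33.2 and 35.9 in Mito-Lipo. BRCA1, of homologous recombination, had 29.6, 29.03 and 30.1 in DMSO and 22.1, 24.3 and 23.5 in Mito-Lipo. RRM1, the large subunit of ribonucleotide reductase, had 83.3, 82.2 and 81.9 in DMSO and 62.2, 64.6 and 70.2 in Mito-Lipo. In all 3 genes every Mito-Lipo library was below every DMSO library, with a limma adjusted p of 0.397 for each and 0.0983 to 0.118 with the block. In Com these genes stood nearer to DMSO, at means of 43.2 ± 2.60, 27.3 ± 2.54 and 78.5 ± 5.82 against 45.1 ± 3.07, 29.6 ± 0.517 and 82.5 ± 0.732 (SD, n = 3).

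In Gilteritinib 33 of the 54 were higher (40.2% of all genes were) and 21 lower than in DMSO, with a median of 0.01, and 0 passed, while median-ratio scaling gave 47 higher and 7 lower. In Com 8 were higher and 46 lower (54.0% of all genes were), with a median of -0.06, and 0 passed. The Com median rested on number 1, where it was -0.18, against -0.02 and 0.01 at numbers 2 and 3, so without replicate 1 the list in Com stood close to DMSO. The 54 genes were all higher in Gilteritinib than in Mito-Lipo (36.1% of all genes were; median 0.27, 30 at an unadjusted p under 0.05 beside 2.96% of all genes, 0 passed, 17 with the batch term) and all higher in Com than in Mito-Lipo (40.5% of all genes were; median 0.19, 16 at an unadjusted p under 0.05 beside 1.41% of all genes, 0 passed). In the interaction all 54 estimates were above 0, as were 47.4% over all genes, with a median of 0.18, and 0 passed. Against DMSO the medians of Com and Mito-Lipo were close at number 1, at -0.18 and -0.20. They were -0.02 and -0.26 at number 2 and 0.01 and -0.28 at number 3. Neither the higher level in Com nor the interaction above 0 held for all 54 genes at number 1. Com and Gilteritinib against Mito-Lipo, the interaction and Mito-Lipo against DMSO use the same 3 Mito-Lipo libraries and are not separate results.

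A list of 25 genes of G2/M, which the DREAM complex is known to repress in resting cells, showed the same order of medians. In Mito-Lipo all 25 were below DMSO, with a median of -0.23 and 18 that did not overlap, beside 43.0% and 5.9% of all genes, and 0 passed. Among them, KIF11, a spindle motor, had FPKM 34.3, 35.0 and 36.5 in DMSO and 26.3, 28.8 and 29.2 in Mito-Lipo. ECT2, of cytokinesis, had means of 21.0 ± 1.84 and 17.05 ± 0.563, and BUB1, of the spindle checkpoint, 60.3 ± 7.66 and 47.9 ± 1.03. In Gilteritinib 24 of the 25 were above DMSO (median 0.10), beside 40.2% of all genes. In Com all 25 means were below DMSO (median -0.09), or 23 with median-ratio scaling, but number by number the median was -0.29, 0.03 and 0.01, so that only replicate 1 held it.

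The partners and regulators of the family were taken next. TFDP1, the DP partner of the E2Fs, was more abundant than any member, at 107 ± 4.11 in DMSO and 97.6 ± 3.16 in Mito-Lipo, a log2 difference of -0.13 (-0.33 to 0.06, adjusted p = 0.787 by limma). TFDP2, the second partner, stood at 4.24 ± 0.367 and 3.65 ± 0.165, and E2F6, a repressor that binds no pocket protein, at 7.42 ± 0.277 and 6.95 ± 0.587. None of the 3 passed in any condition comparison. Of 7 DREAM and MuvB genes, 6 were lower and 1 higher in Mito-Lipo than in DMSO, where 43.0% of all genes were lower. Their median was -0.18, and 0 passed. LIN9 and LIN54, of the MuvB core, had log2 differences of -0.29 (adjusted p = 0.624) and -0.25 (adjusted p = 0.582), while LIN37 of the same core differed by 0.31 (adjusted p = 0.678) at an FPKM near 1.

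The cyclins and kinases that phosphorylate the pocket proteins were measured in 7 of 8 list genes, since CCND1 did not reach the filter. None passed against DMSO in any treatment. CDK2 stood at 17.7 ± 1.82 in Mito-Lipo and 20.8 ± 3.04 in DMSO, and CCNE2, a cyclin of its complex, at 11.2 ± 1.28 and 12.01 ± 1.001. CCND2, a D-type cyclin, had FPKM 10.3, 15.7 and 17.2 in Mito-Lipo and 6.47, 13.3 and 12.5 in DMSO, higher at each number with overlapping groups and an adjusted p of 0.850.

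Of 7 CDK inhibitors 6 were tested, CDKN1C being too low. CDKN1A, which encodes p21, had FPKM 113, 45.4 and 45.1 in Mito-Lipo, 92.1, 30.1 and 30.7 in Com, 20.2, 20.3 and 20.8 in Gilteritinib and 48.4, 19.3 and 19.1 in DMSO. It was above DMSO at each number in Mito-Lipo and Com, and replicate 1 was the high library in 3 of the 4 conditions. The log2 difference of Mito-Lipo from DMSO was 1.20 (0.11 to 2.29), with an adjusted p of 0.582 by limma and 0.130 with the block. CDKN2C, encoding p18, stood at 13.6 ± 0.514 in Mito-Lipo and 20.1 ± 4.38 in DMSO, without overlap (log2 -0.51, adjusted p = 0.507 by limma). CDKN2A had FPKM 40.6, 23.2 and 21.0 in Mito-Lipo and 38.3, 39.6 and 39.9 in DMSO, so that replicate 1 differed in direction from the other two.

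In a limma fit of condition and replicate number, 4 libraries against 4, 4968 genes passed between replicates 1 and 2 (26.7%) and 6265 between replicates 1 and 3 (33.7%). Of the 9 members, E2F1, E2F3 and E2F8 passed as lower in replicate 1 in both comparisons. E2F5, which entered the test only through its replicate 1 libraries, passed as higher. Genes that passed as lower made up 9.49% and 9.45% of all genes tested, and genes that passed as higher 17.3% and 24.3%. These splits depend on the scaling, since 3205 higher and 1763 lower calls between replicates 1 and 2 became 2084 and 2623 with median-ratio scaling, and 4509 and 1756 between replicates 1 and 3 became 2657 and 3156. With quantile normalization the splits were 2129 to 2610 and 2234 to 2937. The median of all genes was 0.07 and 0.11 in these comparisons and 0.01 in both with median-ratio scaling.

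In these comparisons 8.58% and 8.35% of all genes were lower in replicate 1 without overlap, and 16.7% and 21.9% higher. E2F1 had FPKM 14.8 to 17.3 in the 4 replicate 1 libraries and 18.2 to 24.7 in the other 8, without overlap, and fell by 0.43 and 0.40 in log2 against replicates 2 and 3 (adjusted p = 0.00182 and 0.00207). E2F3, on chromosome 6 (20401906 to 20493715, plus strand), had 9.88 to 10.8 against 12.4 to 13.8, also without overlap, and fell by 0.34 and 0.33 (adjusted p = 0.00291 and 0.00270). E2F8 had 9.98 to 12.7 against 12.96 to 17.9 and fell by 0.45 and 0.40 (adjusted p = 0.000808 and 0.00101).

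E2F5, on chromosome 8 (85177225 to 85217158, plus strand), had 1.30 to 1.596 in replicate 1 and 0.744 to 0.956 in the other 8 libraries. Its differences of 0.39 and 0.35 passed the test (adjusted p = 0.00879 and 0.0107), but it had entered the test only because the 4 replicate 1 libraries reached FPKM 1, so it had to differ there. With quantile normalization the difference from replicate 3 was 0.19, at an adjusted p of 0.106. E2F4, on chromosome 16 (67192169 to 67198918, plus strand), had 32.1 to 37.2 in replicate 1 and 33.5 to 38.8 in the others and differed by -0.11 in both comparisons (adjusted p = 0.243 and 0.240), although with median-ratio scaling it passed, at -0.19 (adjusted p = 0.0492) and -0.23 (adjusted p = 0.0206). It also passed without Mito-Lipo replicate 1, at an adjusted p of 0.0241 and 0.0236.

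E2F7, on chromosome 12 (77021247 to 77065580, minus strand), differed by -0.06 and -0.11 and did not pass, except in the comparison of replicates 1 and 3 with median-ratio scaling (-0.23, adjusted p = 0.0289) or quantile normalization (-0.26, adjusted p = 0.0266). RB1 had 30.0 to 37.4 in replicate 1 and 28.4 to 32.2 in the others, a difference of 0.17 (adjusted p = 0.0542) and 0.12 (adjusted p = 0.121). Without DMSO replicate 1, RB1 passed in both comparisons, at 0.23 (adjusted p = 0.0102) and 0.19 (adjusted p = 0.0188), and without DMSO replicate 2 it passed between replicates 1 and 2 (0.21, adjusted p = 0.0478), as it did among genes with a mean FPKM of at least 5 (adjusted p = 0.0443) or protein-coding genes (adjusted p = 0.0352). RBL1, at 22.8 to 27.96 in replicate 1 and 21.7 to 28.1 in the others, and RBL2, on chromosome 16 (53433977 to 53491649, plus strand), at 28.8 to 31.3 and 27.2 to 30.3, did not differ beyond their spread, with intervals from -0.16 to 0.12 for RBL1 and -0.08 to 0.12 for RBL2. Between replicates 2 and 3 none of the 9 members and none of the 18574 genes passed (0.0%), with 826 at an unadjusted p under 0.05.

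**Figure D4:**
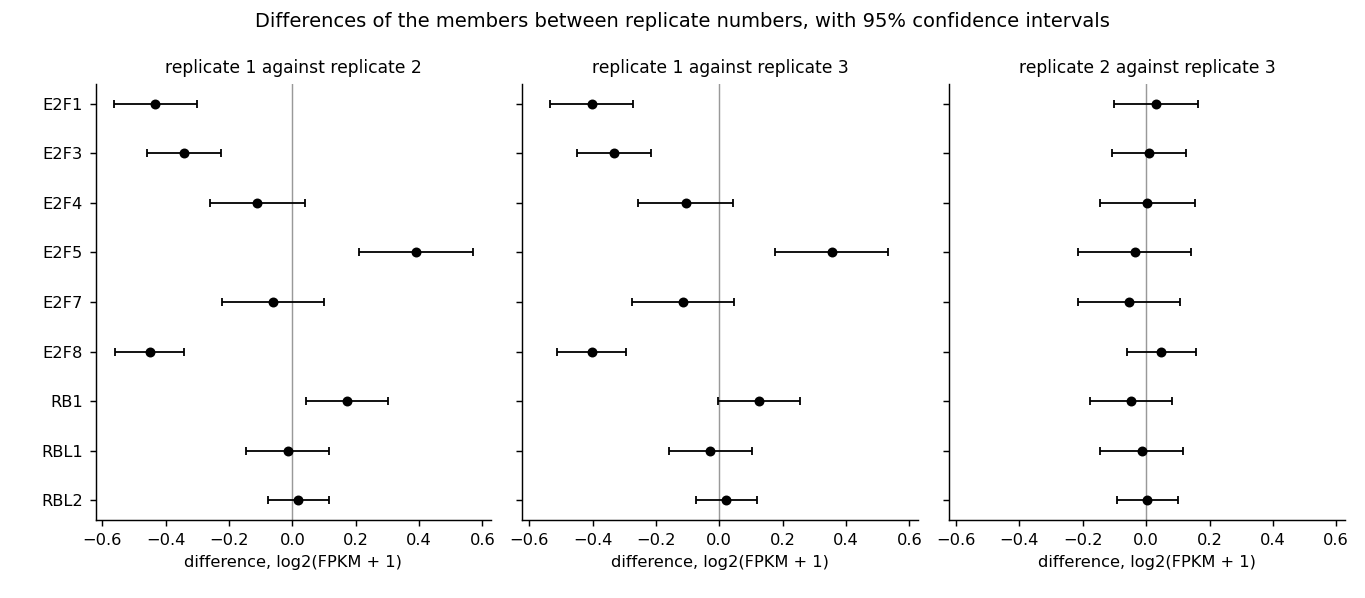
Difference of each tested member in log2(FPKM + 1) (x axis) between replicate numbers, 4 libraries against 4, with 95% confidence intervals from limma fitted with condition and replicate number. E2F1, E2F3 and E2F8 lie between -0.33 and -0.45 in both comparisons of replicate 1. E2F5 lies near 0.4 in both, but it entered the test only through its replicate 1 libraries and so had to differ there. All 9 intervals hold 0 between replicates 2 and 3.

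Of the 54 G1/S genes, 26 passed as lower and 1 (WEE1) as higher in replicate 1 than in replicate 2. Against replicate 3, 28 passed as lower and 1 (POLE2) as higher. The median over the 54 genes was -0.17 in both. Of all genes, 9.49% and 9.45% passed as lower in these comparisons, and 17.3% and 24.3% as higher. Of the 7 cyclin and kinase genes, 6 passed as lower in each comparison. Of the 6 CDK inhibitors tested, 2 passed as higher and 1 as lower in each. CDKN1A was higher by 1.04 and 1.03 (adjusted p = 0.0154 and 0.0134) and CDKN2A by 0.47 and 0.51 (adjusted p = 0.0355 and 0.0216). CDKN2D, encoding p19 of the INK4 group and named after its values were seen, differed by -0.98 and -0.99 (adjusted p = 0.000370 and 0.000324). WEE1, a kinase that restrains CDK1, and POLE2, a subunit of a replicative polymerase, were named after their values were seen.

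Across the 12 libraries, after the mean of each replicate number was taken away, E2F1 and E2F8 had a Pearson r of 0.81, E2F8 and RBL1 0.79, and E2F1 and RBL1 0.69. These 3 stood lower in Mito-Lipo than in DMSO at each number, as did RBL2 by smaller amounts. E2F1 and E2F3 had an r of 0.30 in this measure but 0.88 without the step, so their likeness lay between replicate numbers. RB1 and RBL2 had 0.62 in this measure. Only the mean of each replicate number was taken away, so differences between the treatments stay in these values. The libraries also differed in depth, and the values are descriptions over 12 points. In the same measure, with the mean of each replicate number taken away, and among 9382 genes with a mean FPKM of at least 5, the 3 most like E2F1 were ATIC (0.96), ICMT (0.95) and FEN1 (0.95). FEN1 is a nuclease of DNA replication and belongs to the G1/S list. The 3 most like E2F8 were CENPU (0.97), PBRM1 (0.96) and COQ2 (0.96), those most like E2F4 were LDB1, THAP4 and CLUH (each 0.98), and among those most like RB1 were RRM2B (0.95) and CD47 (0.95).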

How the data were processed

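RNA of MV4-11 cells was sequenced in 12 libraries by a sequencing company. The authors deposited FPKM per gene in 1 table; the submitters' notes name Bowtie 0.12.9, Cufflinks 2.1.1, HTSeq and DESeq2, and a mouse build although the identifiers are human, so the build and annotation are unclear and mappings to near-identical copies could not be checked. Of 43876 rows 40169 were found in GENCODE 29 (GRCh38), which gave positions. Values were tested as log2(FPKM + 1), keeping a gene where 3 or more libraries reached FPKM 1, which left 18574 genes. Tests used limma 3.58.1 in R 4.3.3, two-sided, with a mean-variance trend, Benjamini-Hochberg adjustment and 1 mean per condition over all 12 libraries. Replicate numbers were compared in a fit of condition and number. A call is an adjusted p under 0.05. The study names t-tests for pairs of groups. Intervals are 95%.

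Members and lists were chosen with earlier results of these data known. Named beside the members were TFDP1, TFDP2 and E2F6, the 3 genes of each other list with the smallest p in Mito-Lipo against DMSO, and the 3 genes most like the most abundant member of each class; others are said to be named after their values were seen. Some genes that these rules name are not reported here.

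Depth was recovered from FPKM steps of genes with 1 transcript, and 95.0% to 95.3% of the values checked were whole fragments within 0.1. Fragments per gene use GENCODE exon lengths and are approximate, and counting errors cover counting only. Replicate numbers come from the labels. In deviations from the condition means all 18 same-numbered pairs correlated, from 0.165 to 0.657, against -0.562 to 0.434 for the 36 other pairs. Of these other pairs 12 also correlated above 0.1. What a number stands for is not given in the sources used here.

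The fits were tested on simulated data with known changes. Alternatives were a pseudocount of 0.1, other filters and scalings, no trend, the block, a batch term, subsets of libraries and genes, and each library left out.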

Additional observations from a re-analysis of the deposited data

How the results depend on the processing

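With the replicate block no member's call changed, and against Mito-Lipo it brought the genes called from 0 to 2 for Com and from 0 to 5 for Gilteritinib, and from 1 to 0 for Com against DMSO. Com against DMSO also gave 0 with a pseudocount of 0.1, a mean FPKM of at least 5, protein-coding genes, or only the libraries compared. Without a filter the counts were 3, 2, 1, 3, 3, 3 and 1 for the 2 single drugs against DMSO (Mito-Lipo first), Com against Gilteritinib, Com and Gilteritinib against Mito-Lipo, the interaction and replicate 2 against 3. With the batch term, Mito-Lipo against DMSO gave 34, Com against Mito-Lipo 11 and Gilteritinib against Mito-Lipo 252. Replicates 2 and 3 alone gave 1190 (Mito-Lipo against DMSO), 114 (Gilteritinib against DMSO), 9 (Com against DMSO), 14 (Com against Gilteritinib), 1139 (Com against Mito-Lipo), 1231 (Gilteritinib against Mito-Lipo) and 552 (interaction). Unadjusted p under 0.05 gave 1467, 346, 310, 303, 1027, 1768 and 541 in that order, 7519 between replicates 1 and 2 and 826 between 2 and 3. A mean FPKM of at least 5 gave 3793 between replicates 1 and 3. With 1 library left out the counts ranged from 0 to 36 (Mito-Lipo against DMSO), 0 to 20 (Com against Mito-Lipo) and 0 to 41 (Gilteritinib against Mito-Lipo), each highest without Mito-Lipo replicate 1, from 0 to 1 for the other condition comparisons except Com against Gilteritinib (0 to 0), 2725 to 5026 between replicates 1 and 2 (lowest without Com replicate 2), 3715 to 6046 between 1 and 3 (lowest without Gilteritinib replicate 3, 4166 without Mito-Lipo replicate 3) and 0 to 1 between 2 and 3. With the block and without Mito-Lipo replicate 1, E2F8 passed against DMSO (-0.39, adjusted p = 0.0218) and in Gilteritinib against Mito-Lipo (0.35, adjusted p = 0.0261), and without Com replicate 1 at 0.0455 and 0.0328; these fits were chosen after seeing the data. With 1 library left out, the activator to canonical log2 ratio less that of DMSO ranged from -0.22 to 0.06 in Mito-Lipo, -0.06 to 0.12 in Gilteritinib and -0.12 to 0.06 in Com, and the activator to atypical ratio from 0.13 to 0.22, 0.01 to 0.11 and 0.01 to 0.08. Signs changed in 151 member values, 43 under the settings below and 108 with 1 library left out, none of them called and none above 0.16 in size as reported. Their causes were not tested. With median-ratio scaling, the log2 differences that changed sign were E2F3 -0.015, RB1 -0.021 in Mito-Lipo against DMSO, E2F3 0.034, E2F8 0.0031, RBL1 0.032 in Gilteritinib against DMSO, E2F3 -0.0020 in Com against Gilteritinib, E2F3 0.050, RBL2 0.018 in Gilteritinib against Mito-Lipo, E2F5 -0.0058 in the interaction, RBL2 -0.059 in replicate 1 against replicate 2, RBL2 -0.10 in replicate 1 against replicate 3, E2F1 -0.014, E2F3 -0.035, E2F4 -0.041, RBL2 -0.041 in replicate 2 against replicate 3. With quantile normalization, the log2 differences that changed sign were E2F3 -0.020, E2F4 0.0054 in Mito-Lipo against DMSO, E2F3 0.026 in Gilteritinib against DMSO, E2F3 -0.0026 in Com against Gilteritinib, E2F5 0.019 in Com against Mito-Lipo, E2F3 0.046, E2F5 0.057, RB1 -0.023 in Gilteritinib against Mito-Lipo, E2F4 -0.0095 in the interaction, RBL2 -0.0060 in replicate 1 against replicate 3, E2F3 -0.014, E2F4 -0.0022, RBL2 -0.0073 in replicate 2 against replicate 3. With a pseudocount of 0.1, the log2 differences that changed sign were E2F5 0.0058 in Mito-Lipo against DMSO, E2F5 -0.019 in the interaction. With replicates 2 and 3 only, the log2 differences that changed sign were E2F5 0.029, RB1 -0.055 in Mito-Lipo against DMSO, E2F3 0.052, E2F5 0.0088, RB1 -0.090, RBL1 0.025 in Gilteritinib against DMSO, RBL1 0.014, RBL2 -0.044 in Com against DMSO, E2F7 -0.016 in Com against Gilteritinib, E2F3 0.015, RB1 -0.036 in Gilteritinib against Mito-Lipo, E2F3 -0.011, E2F5 -0.076 in the interaction. With 1 library left out, members whose sign changed had these ranges. In Mito-Lipo against DMSO they were E2F3 -0.069 to 0.11, E2F4 -0.063 to 0.011, E2F5 -0.12 to 0.15, RB1 -0.042 to 0.039. In Gilteritinib against DMSO they were E2F1 -0.060 to 0.24, E2F3 -0.082 to 0.13, E2F4 -0.034 to 0.099, E2F5 -0.14 to 0.098, E2F7 -0.036 to 0.10, E2F8 -0.19 to 0.083, RB1 -0.077 to 0.058, RBL1 -0.048 to 0.014. In Com against DMSO they were E2F1 -0.17 to 0.098, E2F3 -0.055 to 0.16, E2F4 -0.034 to 0.079, E2F5 -0.19 to 0.097, E2F8 -0.32 to 0.015, RBL2 -0.030 to 0.030. In Com against Gilteritinib they were E2F1 -0.30 to 0.044, E2F3 -0.11 to 0.16, E2F4 -0.093 to 0.063, E2F5 -0.14 to 0.11, E2F7 -0.030 to 0.085, E2F8 -0.24 to 0.052, RBL1 -0.081 to 0.00081. In Com against Mito-Lipo they were E2F3 -0.092 to 0.15, E2F4 -0.0093 to 0.10, E2F5 -0.19 to 0.068. In Gilteritinib against Mito-Lipo they were E2F3 -0.12 to 0.12, E2F4 -0.0099 to 0.12, E2F5 -0.14 to 0.069, RB1 -0.081 to 0.055. In the interaction they were E2F1 -0.094 to 0.25, E2F3 -0.11 to 0.15, E2F4 -0.068 to 0.088, E2F5 -0.15 to 0.12. In replicate 1 against replicate 2 they were RBL1 -0.054 to 0.031, RBL2 -0.0080 to 0.039. In replicate 1 against replicate 3 they were RBL1 -0.076 to 0.012, RBL2 -0.0025 to 0.043. In replicate 2 against replicate 3 they were E2F1 -0.0058 to 0.074, E2F3 -0.031 to 0.027, E2F4 -0.048 to 0.037, E2F5 -0.068 to 0.0017, RBL1 -0.062 to 0.027, RBL2 -0.015 to 0.030.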
